A study of Mus musculus with 6 samples.

Results

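The transcripts of p53 and of genes that p53 switches on after DNA damage were examined in hematopoietic stem cells (HSCs) of WT and *Irf1-/-* mice. The group comprised 10 genes, chosen by symbol from a table of 26264 genes. These were *Trp53*, which encodes p53, its inhibitors *Mdm2* and *Mdm4*, and the damage-response genes *Ccng1*, *Phlda3*, *Trp53inp1*, *Sesn1*, *Sesn2*, *Zmat3*, and *Btg2*. All 10 were found in the table.

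Bulk RNA-seq was performed on HSCs sorted from the bone marrow of 3 WT and 3 *Irf1-/-* mice, with 1 library per mouse. The mice were untreated, female, and 8 weeks old. WT mice were C57Bl/6, and *Irf1-/-* mice carried the B6.129S2-Irf1tm1Mak/J allele, which removes IRF1, a transcription factor of the interferon response, from the whole body. Effects of *Irf1-/-* cells outside the HSC compartment on HSCs therefore cannot be told apart from effects within it. Libraries are given by the replicate numbers 2, 3, and 4 that the labels use in both genotypes. In WT HSCs, 59658080, 45332573, and 43267486 reads were counted on genes in replicates 2, 3, and 4. The corresponding *Irf1-/-* libraries held 43138521, 57281017, and 45129929 reads. Values are normalized counts, that is, reads per gene divided by a size factor of the library.

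The targeted gene was examined first. *Irf1* had 10122, 11120, and 12057.5 normalized counts in WT replicates 2, 3, and 4, and 9267, 9524, and 9287 in the *Irf1-/-* replicates. Every *Irf1-/-* library lay below the lowest WT library, but the mean in *Irf1-/-* HSCs was still 84.3% of that in WT HSCs (log2 fold change −0.24, adjusted *P* = 0.170, limma). Reads were thus still counted on the disrupted gene, and counts per gene do not show which exons they came from, so this value is a weak check of the genotype labels. The HSC label was compared with 10 marker genes, all of which were tested. Their median log2 fold change was 0.25, with 8 above 0. In every *Irf1-/-* library, 5 were higher than in any WT library (10.6% of all tested genes) and 1 was lower (9.27%), and 1, *Fgd5*, was called higher (0.96%) by the thresholds given below. *Kit*, the receptor for stem cell factor, had 82582 ± 1839 normalized counts in WT (SD, *n* = 3) and 82175 ± 5752 in *Irf1-/-* HSCs. *Slamf1*, which encodes CD150, had 3032 ± 176 and 3572 ± 220.2, without overlap between genotypes. *Ly6a*, which encodes the sort marker SCA-1, had 6908, 7439, and 7692 in WT and 4974, 6047, and 5376 in *Irf1-/-* HSCs, lower in every library, with a fold change under the threshold for a call (log2 fold change −0.43, adjusted *P* = 0.0245, limma). *Cd48*, whose product the sort gate leaves out, lay between 257 and 431 over the 6 libraries. Of the T cell genes, *Cd8a*, *Cd3e*, *Cd3g*, *Cd3d*, and *Cd4* had at most 2.59, 7.89, 12.4, 52.7, and 340.5 normalized counts in any library, whereas *Nkg7*, a gene of NK and T cells, had between 2174 and 3209. Transcripts of other lineage markers were also counted in every library, with 23206 to 31462 normalized counts for the myeloid gene *Lyz2*, 4841 to 9879 for *Prtn3*, and 2521 to 2952 for the B cell gene *Cd79b*. The globin genes *Hba-a1*, *Hba-a2*, *Hbb-bs*, and *Hbb-bt* were listed at 0 in all 6.

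The transcription factor p53 is kept at a low level by MDM2, a ubiquitin ligase that marks it for degradation, and by the related protein MDM4, which blocks its activity. Kinases that sense broken or stalled DNA release p53 from this hold, and it then switches on genes for cell-cycle arrest, repair, metabolic restraint, and cell death, together with *Mdm2* itself as feedback. In HSCs, p53 is known for keeping cells quiescent and for removing cells with damaged DNA. Much of this control acts on the protein, which RNA-seq does not measure.

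Differences between the genotypes were tested with limma, a linear model that shares information on variance between genes, for the 17404 genes with a mean of at least 10 normalized counts. It was run on log2 values after 1 was added to each count, so a positive log2 fold change means more transcript in *Irf1-/-* HSCs, and differences at low counts come out too small. Calls required an adjusted *P* (Benjamini-Hochberg) below 0.05 together with a log2 fold change beyond 0.58 in either direction. All 10 genes passed the filter on low values.

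*Btg2* was lower in *Irf1-/-* HSCs, and it was the only one of the 10 genes called, beside 1.91% of all tested genes that were called in either direction. No gene of the 10 was called higher (0.96% of all tested genes) and 1 was called lower (0.954%). edgeR called 0 of the 10, beside 165 genes higher and 162 lower over all genes. DESeq2 called *Btg2* lower and *Phlda3* higher, beside 295 genes higher and 209 lower over all genes. With no minimum fold change, 1 of the 10 genes and 3.22% of all tested genes passed the adjusted *P* in limma. An unadjusted *P* under 0.05 was reached by 4 of the 10, *Btg2*, *Sesn2*, *Phlda3*, and *Sesn1*, and by 16.5% of all tested genes. *Phlda3*, *Sesn1*, and *Sesn2* were higher in every *Irf1-/-* library than in any WT library, as were 10.6% of all tested genes, and *Btg2* was lower in every one, as were 9.27%. The 10 genes did not move as a block, with 6 log2 fold changes above 0 and 4 below. Their median was 0.07, compared with −0.0028 over all tested genes. In bulk samples, fewer cells of a type and less RNA per cell cannot be told apart.

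**Figure D1:**
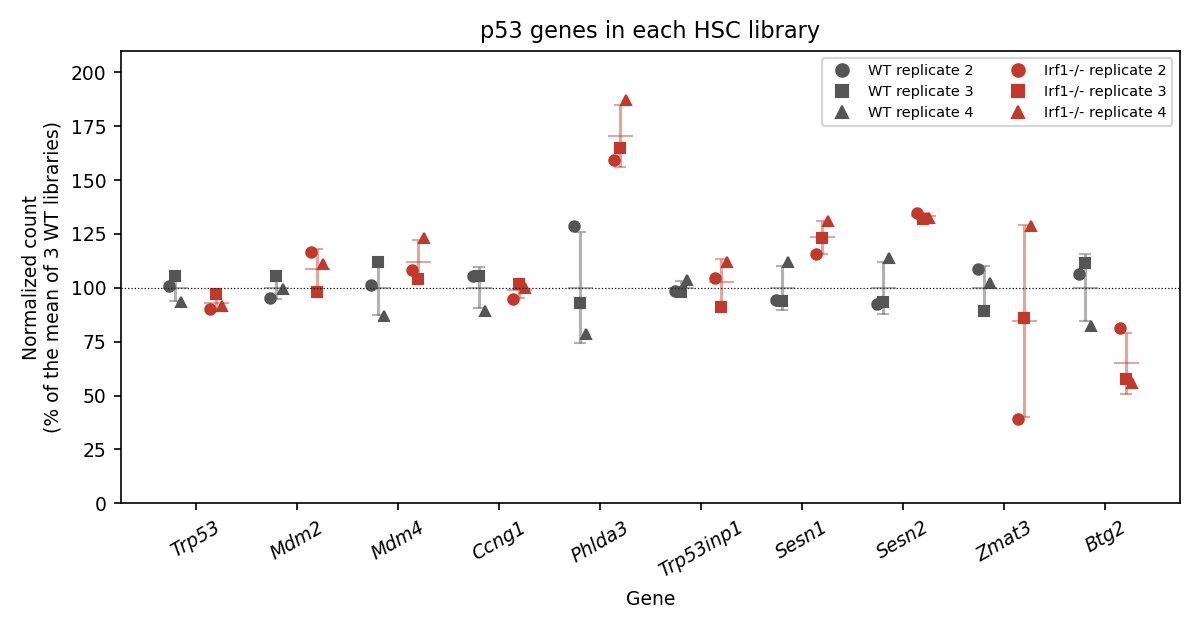
Normalized counts of the 10 genes in each of the 6 HSC libraries, as a percentage of the mean of the 3 WT libraries. Symbols are libraries of WT (grey) and *Irf1-/-* (red) mice, and lines with bars are the mean ± SD (*n* = 3); red lies wholly above grey for *Phlda3*, *Sesn1*, and *Sesn2* and wholly below it for *Btg2*.

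*Trp53* had 15162, 15863, and 14065 normalized counts in WT replicates 2, 3, and 4, and 13530.1, 14574, and 13744.5 in the *Irf1-/-* replicates. The highest *Irf1-/-* library was above the lowest WT library, so the genotypes overlapped. The log2 fold change was −0.11 (SE 0.085, 95% confidence interval −0.29 to 0.07, adjusted *P* = 0.615, limma). The interval of *Trp53* lay within the threshold on the fold change in both directions.

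*Mdm2* had 4807, 5327, and 5023 normalized counts in WT and 5896, 4955, and 5608 in *Irf1-/-* HSCs. *Irf1-/-* replicates 2 and 4 were above all WT libraries, whereas replicate 3 was within the WT range. Its log2 fold change was 0.12 (SE 0.093, 95% confidence interval −0.08 to 0.32, adjusted *P* = 0.620, limma). *Mdm4* had 4144, 4578, and 3546 in WT and 4423, 4252, and 5043 in *Irf1-/-* HSCs, where replicate 4 alone was above the WT range. The other *Irf1-/-* values of *Mdm4* mixed with those of WT (log2 fold change 0.17, 95% confidence interval −0.07 to 0.40, adjusted *P* = 0.517, limma). Because MDM2 is both an inhibitor and a target of p53, the ratio of their transcripts was also taken in each library. *Mdm2* over *Trp53* was 0.317, 0.336, and 0.357 in WT and 0.436, 0.340, and 0.408 in *Irf1-/-* replicates 2, 3, and 4. Here too, *Irf1-/-* replicate 3 lay among the WT libraries.

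*Btg2* encodes an antiproliferative protein that recruits the enzymes that shorten the tails of mRNAs. It had 1758, 1840.3, and 1359 normalized counts in WT replicates 2, 3, and 4, and 1341, 954, and 923 in the *Irf1-/-* replicates. The genotypes did not overlap, but WT replicate 4 and *Irf1-/-* replicate 2 nearly met. On average, *Irf1-/-* HSCs held 64.9% of the *Btg2* transcript of WT HSCs (log2 fold change −0.63, SE 0.16, 95% confidence interval −0.97 to −0.29, adjusted *P* = 0.0460, limma). The call was close to both thresholds and was lost in 4 of the 6 fits that left out a library. The log2 fold change was −0.58 without WT replicate 2, −0.55 without WT replicate 3, −0.56 without *Irf1-/-* replicate 3, and −0.53 without *Irf1-/-* replicate 4, with an adjusted *P* in limma of up to 0.192. It was −0.77 without WT replicate 4 and −0.80 without *Irf1-/-* replicate 2, both called. edgeR on the recovered reads gave −0.62 (adjusted *P* = 0.0517) and DESeq2 −0.62 (adjusted *P* = 0.00350).

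*Phlda3*, whose product competes with the kinase AKT for membrane lipids and so restrains it, was the gene with the largest positive fold change of the 10. It had 269.9, 195, and 165 normalized counts in WT and 335, 346, and 392.4 in *Irf1-/-* HSCs. The *Irf1-/-* libraries lay close together above WT replicate 2, the highest of the more scattered WT libraries. On average, *Irf1-/-* HSCs held 170.4% of the WT level, but the adjusted *P* missed the threshold (log2 fold change 0.79, SE 0.22, 95% confidence interval 0.31 to 1.28, adjusted *P* = 0.0758, limma). DESeq2 called it (log2 fold change 0.76, adjusted *P* = 0.0138), edgeR did not (adjusted *P* = 0.0983), and limma called it without WT replicate 2 (log2 fold change 0.99, adjusted *P* = 0.0482). In the other 5 fits without a library it was not called, with log2 fold changes down to 0.63.

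The sestrins *Sesn1* and *Sesn2* encode stress proteins that hold back the growth kinase mTORC1. *Sesn1* had 10523, 10455, and 12487 normalized counts in WT and 12926, 13742, and 14611 in *Irf1-/-* HSCs. WT replicate 4 was the highest WT library and came close to *Irf1-/-* replicate 2, the lowest of its genotype. The log2 fold change was 0.31 (SE 0.094, 95% confidence interval 0.10 to 0.51, adjusted *P* = 0.104, limma). *Sesn2* had 1633, 1646, and 2008.5 in WT and 2377, 2329, and 2333 in *Irf1-/-* HSCs. The *Irf1-/-* libraries were almost equal, and WT replicate 4 was again the highest WT library. Its log2 fold change of 0.42 narrowly missed the threshold on the adjusted *P* and was also under that on the fold change (SE 0.11, 95% confidence interval 0.19 to 0.65, adjusted *P* = 0.0525, limma). Without WT replicate 4, the adjusted *P* in limma was 0.0225 for *Sesn1* and 0.0139 for *Sesn2*, with log2 fold changes of 0.39 and 0.52 that still did not reach the threshold. In the other fits without a library, it was up to 0.400 for *Sesn1* (without *Irf1-/-* replicate 4) and up to 0.211 for *Sesn2* (without WT replicate 2). DESeq2 gave an adjusted *P* of 0.0327 for *Sesn1* and 0.00794 for *Sesn2*, and edgeR 0.0967 and 0.0492. For *Sesn2*, it was also under 0.05 in limma with a pseudocount of 5 (0.0481) or equal totals (0.0462), but in no fit did either gene reach the fold change threshold. *Sesn1* over *Sesn2* was between 6.22 and 6.45 in WT libraries and between 5.44 and 6.26 in *Irf1-/-* libraries, so their balance overlapped between genotypes.

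*Ccng1*, which encodes cyclin G1, a p53 target that feeds back on MDM2, had 6345, 6340.2, and 5356 normalized counts in WT and 5700.1, 6130.2, and 6019.95 in *Irf1-/-* HSCs. All *Irf1-/-* libraries lay within the WT range. The log2 fold change was −0.01 (95% confidence interval −0.21 to 0.19, adjusted *P* = 0.974, limma), and its sign depended on the scaling and on which library was left out. *Trp53inp1*, which encodes a stress protein of cell death and autophagy, had 2279, 2271, and 2394 in WT and 2416, 2109, and 2595 in *Irf1-/-* HSCs. WT libraries were alike, and the *Irf1-/-* libraries spread to both sides of them (log2 fold change 0.03, 95% confidence interval −0.19 to 0.25, adjusted *P* = 0.934, limma).

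*Zmat3*, which encodes an RNA-binding zinc finger protein, had the lowest counts of the 10 genes, with 94.6, 77.8, and 89.3 in WT and 34.1, 75.2, and 112 in *Irf1-/-* HSCs. The *Irf1-/-* libraries held both the lowest and the highest value, with a coefficient of variation of 52.9% compared with 9.89% in WT. The log2 fold change of −0.39 therefore had a wide 95% confidence interval of −1.30 to 0.52 (adjusted *P* = 0.732, limma), and it was 0.08 without *Irf1-/-* replicate 2. As few as 32 reads were counted on *Zmat3* in a library, compared with at least 153 on each of the other 9 genes.

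**Figure D2:**
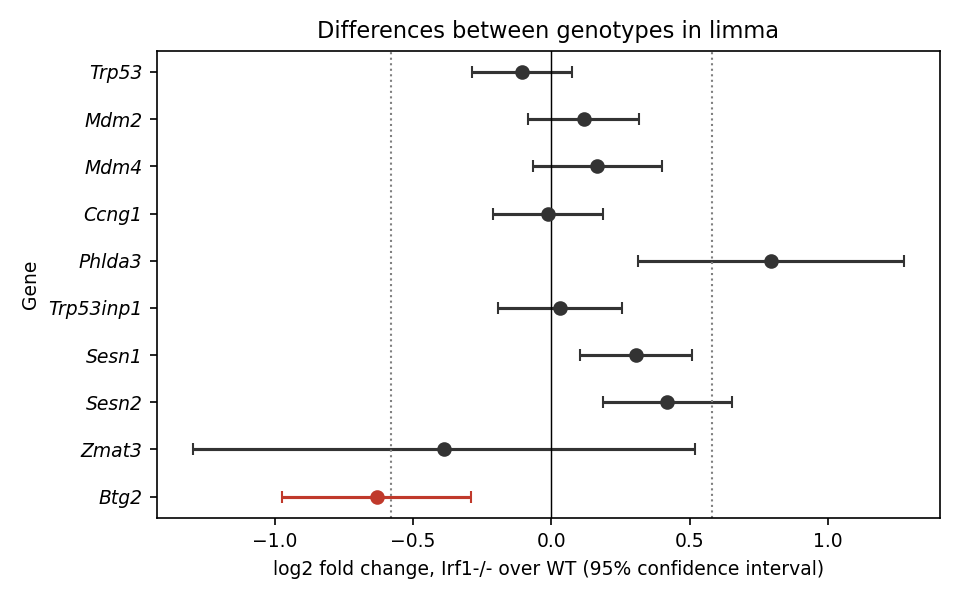
Log2 fold changes of the 10 genes between *Irf1-/-* and WT HSCs (3 libraries each), with 95% confidence intervals from limma as bars and the threshold of 0.58 in both directions as dotted lines. *Btg2* (red) is the only gene called, and the intervals of *Phlda3*, *Sesn1*, and *Sesn2* lie above 0.

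Levels of different genes were compared as normalized counts per kilobase of exon, with lengths from GENCODE vM1. Each length merged all annotated exons of a gene, for example 4045 bases for *Trp53* and 3327 for *Sesn1*. A single transcript can be shorter, so the order of genes, and whether neighbours overlap, depends on these lengths. Per kilobase, *Trp53* had the highest level in WT HSCs, with 3716 ± 224 (SD, *n* = 3), above 94.2% of the tested genes with a known length. *Sesn1* followed with 3353 ± 347, and its libraries overlapped with those of *Trp53*. *Ccng1* (1712 ± 162) was next and overlapped with neither neighbour in this order. *Mdm4* (1165 ± 148) and *Mdm2* (997 ± 51.5) overlapped, as did *Btg2* (602 ± 93.9) and *Sesn2* (507 ± 61.3). *Trp53inp1* (357 ± 10.6) and *Phlda3* (135 ± 34.8) came below them, and *Zmat3* was last with 10.8 ± 1.07 per kilobase, above 14.1% of tested genes. The transcript of p53 itself was thus abundant in WT HSCs, while its targets ranged from a similar level to near the bottom of the tested genes.

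In *Irf1-/-* HSCs, this order differed at both overlapping pairs that involve a sestrin. *Sesn1* came first, with 4136 ± 253 normalized counts per kilobase, and its lowest library (3885) was above the highest library of *Trp53* (3603). *Sesn2* (675 ± 7.75 per kilobase) stood above *Btg2* (391 ± 84.9 per kilobase), again without overlap. The other 6 genes kept their places in the order.

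The libraries differed in how many of the 10 genes they topped. *Irf1-/-* replicate 4 held the highest value for 5 genes, *Mdm4*, *Phlda3*, *Trp53inp1*, *Sesn1*, and *Zmat3*, and the lowest for *Btg2*. WT replicate 4 held the highest value for none and the lowest for 3, *Mdm4*, *Ccng1*, and *Phlda3*. The mean deviation of the 10 genes from their own means, on the log2 scale, was 0.01, −0.02, and −0.09 in WT replicates 2, 3, and 4 and −0.04, 0.00232, and 0.14 in the *Irf1-/-* replicates. Replicate 4 was therefore the most extreme library of each genotype, in opposite directions, and the others overlapped.

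The 10 genes did not vary together over the 6 libraries. Among their 45 pairs, the median Pearson *r* of log2 values was 0.091, and 24 were above 0. Only the pair of *Sesn1* and *Sesn2* was above 0.8 (*r* = 0.95), and it stayed at 0.81 after the mean of each genotype was removed. The 4 pairs below −0.8 were *Sesn1* and *Btg2* (*r* = −0.97), *Sesn2* and *Btg2* (*r* = −0.87), *Trp53* and *Sesn2* (*r* = −0.86), and *Trp53* and *Sesn1* (*r* = −0.81). With the genotype means removed, the pairs beyond 0.8 in either direction were *Ccng1* and *Sesn2* (*r* = −0.96), *Sesn1* and *Btg2* (−0.90), *Trp53* and *Ccng1* (0.89), *Sesn1* and *Sesn2* (0.81), and *Trp53* and *Sesn2* (−0.80), while *r* was −0.53 for *Sesn2* and *Btg2*. All pairs share the same 6 libraries and their size factors, and these values are descriptions of those libraries.

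The genes whose pattern over the 6 libraries was most like that of *Trp53* were sought among the 12060 other tested genes with a mean of at least 100 normalized counts. They were *Creld2*, *Prmt7*, and *Letm1* (Pearson *r* of 0.999, 0.997, and 0.997), and 1067 genes had an *r* above 0.9. *Creld2*, for example, had 4263, 4988, and 3108 normalized counts in WT and 2598, 3567, and 2776 in *Irf1-/-* HSCs, which put the libraries in the order that *Trp53* gave them. The mean pattern of the 8 target genes was most like those of *Taf1a*, *Macrod1*, and *Senp6* (*r* of 0.98 each), and 45 genes had an *r* above 0.9.

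Other known p53 targets were read from 4 lists with 37 genes, all of which were tested. None was called by limma or edgeR, while DESeq2 called 2 higher, *Cdkn1a* and *Ephx1*. An unadjusted *P* under 0.05 was reached by 9 in limma (16.5% of all tested genes) and by 8 in both edgeR and DESeq2. In every *Irf1-/-* library, 5 of the 37 were higher (10.6% of all tested genes) and 1, *Ei24*, was lower (9.27%) than in any WT library. Their median log2 fold change was 0.0062, and it was below 0 after quantile normalization (−0.04) or median centring (−0.02). Without WT replicate 4, limma called 2 of them, *Ephx1* higher (log2 fold change 0.99) and *Gtse1* lower (−0.63).

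Of the 7 genes for cell-cycle arrest, 2 were higher in every *Irf1-/-* library, *Cdkn1a* and *Plk2* (10.6% of all tested genes). *Cdkn1a*, which encodes the CDK inhibitor p21 and is the best known target of p53, had 245, 175, and 144 normalized counts in WT and 287, 351, and 312 in *Irf1-/-* HSCs. As for *Phlda3*, all *Irf1-/-* libraries were above the highest WT library, replicate 2. Its log2 fold change of 0.78 was not called (SE 0.24, 95% confidence interval 0.27 to 1.29, adjusted *P* = 0.100, limma), whereas DESeq2 gave 0.75 with an adjusted *P* of 0.0268. The largest negative value in this list was that of *Psrc1*, a spindle protein gene (−0.48, adjusted *P* = 0.156, limma). The list's median of 0.11 turned to −0.02 after quantile normalization.

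Of the 12 genes for cell death, 0 were called by limma, edgeR, or DESeq2, and the median was −0.11. An unadjusted *P* under 0.05 was reached by 3, 2, and 2 (16.5% of all tested genes in limma). *Dram1*, a lysosomal regulator of autophagy, had the most positive log2 fold change (0.10). *Pmaip1*, which encodes the BH3-only protein NOXA, had the most negative, with 14, 14, and 26 reads in WT and 11, 1, and 0 in *Irf1-/-* HSCs. When normalized, *Irf1-/-* replicate 2 (11.7) was at the low end of the WT range, with 11.5, 15.8, and 28.0 in WT replicates 2, 3, and 4. The other *Irf1-/-* libraries were at or near 0. At such counts its log2 fold change depended on the pseudocount, with −2.67 at 1, −1.51 at 5, and −3.13 at 0.5 (adjusted *P* = 0.209 at 1, limma).

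Of the 5 genes for DNA repair and nucleotide supply, 2 were higher in every *Irf1-/-* library, *Xpc* and *Rrm2b* (10.6% of all tested genes). None was called by any of the 3 tools, with 1 at an unadjusted *P* under 0.05 in each (16.5% in limma). *Xpc*, which encodes a sensor of bulky DNA lesions, had 6989, 6828, and 6567 normalized counts in WT and 7530.5, 9105, and 8436 in *Irf1-/-* HSCs (log2 fold change 0.29, adjusted *P* = 0.104, limma). The lowest value was that of *Fancc*, a Fanconi anemia gene (−0.12). In the list of 13 genes for metabolism and feedback, *Ephx1*, which encodes an epoxide hydrolase, had 369, 609.7, and 771 in WT and 1028, 777, and 1056 in *Irf1-/-* HSCs. Its *Irf1-/-* replicate 3 lay just above WT replicate 4 (log2 fold change 0.76, adjusted *P* = 0.0914, limma, and 0.71 with an adjusted *P* of 0.0172 in DESeq2). *Gls2*, a glutaminase gene, was lowest in that list (−0.20), whose median of 0.02 was −0.0076 after median centring.

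None of the 27 tested genes that act upstream of p53 was called, and 17 of them had a log2 fold change below 0, as did 8776 of the 17404 tested genes. Of the 12 sensors and kinases among them, 11 were below 0, with a median of −0.19 that was between −0.22 and −0.15 under the other scalings. Across the 3 WT and 3 *Irf1-/-* libraries, 4 did not overlap, *Atm*, *Atr*, *Prkdc*, and *Chek1*, all of them lower (9.27% of all tested genes). No call was made by limma, edgeR, or DESeq2, with 5, 6, and 6 at an unadjusted *P* under 0.05 (16.5% of all tested genes in limma). *Chek1*, the kinase of the replication checkpoint, had 1531, 1834, and 1258 normalized counts in WT and 1088, 1223, and 930.1 in *Irf1-/-* HSCs. WT replicate 4 was just above *Irf1-/-* replicate 3 (log2 fold change −0.50, SE 0.15, 95% confidence interval −0.82 to −0.18, adjusted *P* = 0.0914, limma), and without WT replicate 4 *Chek1* was called (log2 fold change −0.64). *Atm*, the kinase that responds to double-strand breaks, had 1851, 1734, and 1848 in WT and 1331, 1468, and 1575 in *Irf1-/-* HSCs (log2 fold change −0.32, adjusted *P* = 0.146, limma). The only value above 0 was that of *Trp53bp1* (0.02). *Atrip* was in the table but below the filter on low values.

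Of the 15 tested regulators of the p53 protein, 0 were called by limma, edgeR, or DESeq2. In each, 3 had an unadjusted *P* under 0.05 (16.5% of all tested genes in limma). The median was 0.02, or −0.01 after median centring. *Ppp1r13b*, which encodes the p53 cofactor ASPP1, was higher in all 3 *Irf1-/-* libraries, with 11097, 12672, and 11891.5 normalized counts compared with 9677, 10017.5, and 9203 in WT (log2 fold change 0.30, adjusted *P* = 0.0764, limma). *Cdkn2a*, which encodes the MDM2 inhibitor ARF, had at most 1.13 normalized counts in any library and was not tested.

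Paralogs of the 10 genes were examined because reads of related genes could be shared. Of 11, 10 were tested and 0 were called by limma or edgeR. In each, 2 had an unadjusted *P* under 0.05 (16.5% of all tested genes in limma). *Ccng2*, *Trp53inp2*, *Sesn3*, and *Tob2* were higher in every *Irf1-/-* library and 0 tested paralogs were lower in every one, compared with 10.6% and 9.27% of all tested genes. DESeq2 called *Trp53inp2* higher. It had 71.6, 128, and 133 normalized counts in WT and 275, 198, and 163 in *Irf1-/-* HSCs (log2 fold change 0.94, adjusted *P* = 0.132, limma). *Phlda1* had the most negative value (−0.77, adjusted *P* = 0.431, limma). The p53 relatives *Trp63* and *Trp73* had at most 76.8 and 45.2 normalized counts in any library, far under *Trp53*. *Sesn3*, the remaining sestrin, had 201, 206, and 198 in WT and 285, 283, and 225 in *Irf1-/-* HSCs, higher in all 3 but not called (log2 fold change 0.38, adjusted *P* = 0.422, limma).

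**Figure D3:**
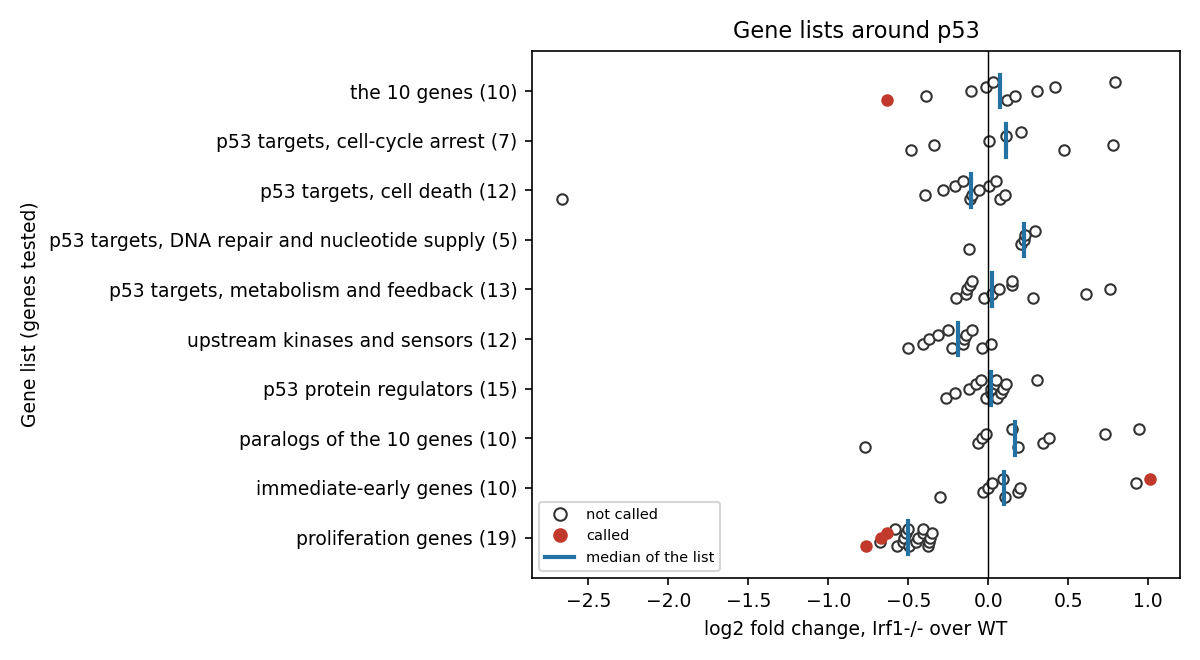
Log2 fold changes between *Irf1-/-* and WT HSCs of the tested genes in each list, with 1 circle per gene (filled when called in limma) and blue lines for list medians. *Btg2* is the filled circle among the 10 genes, and all proliferation genes lie below 0, with a median of −0.50.

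*Btg2* is also induced quickly by growth factors and stress, independently of p53, so it was compared with other immediate-early genes. Of 10, 3 were higher in every *Irf1-/-* library, *Egr1*, *Junb* (log2 fold change 0.20), and *Zfp36* (0.18), as were 10.6% of all tested genes, and 1 was called (1.91%). This was *Egr1*, a zinc finger transcription factor gene, which rose from 2744, 3234, and 2778 normalized counts in WT to 6247, 5935, and 5471 in *Irf1-/-* HSCs. Its log2 fold change was 1.01 (SE 0.097, 95% confidence interval 0.80 to 1.22, adjusted *P* = 3.89e-05, limma), and it was called in all 6 fits that left out a library but not in limma without a trend. *Fos* scattered within both genotypes, with 422, 379, and 57 in WT and 604, 133, and 782 in *Irf1-/-* HSCs. *Btg2* fell where *Egr1* rose, but the list did not move as 1. Of its 10 genes, 7 had a log2 fold change above 0 and 3 below, with *Nr4a1* lowest (−0.30, adjusted *P* = 0.578, limma). The part of such induction in the values of *Btg2* was not tested.

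Of 19 proliferation genes, 3 were called lower (0.954% of all tested genes), and 16 were not called. The 3 were *Mki67*, *Top2a*, and *Aurkb* (log2 fold changes −0.67, −0.77, and −0.63). All 19 had a log2 fold change below 0 and an unadjusted *P* under 0.05 (16.5% of all tested genes in either direction), and 13 were lower in every *Irf1-/-* library (9.27%). Their mean deviation on the log2 scale was 0.34, 0.44, and −0.02 in WT replicates 2, 3, and 4, and −0.11, −0.08, and −0.57 in the *Irf1-/-* replicates. Replicate 4 was the lowest library of both genotypes, as it was for *Btg2*. The summed level of the list was 252542, 280578, and 202142 normalized counts in WT and 186401, 192905, and 156928 in *Irf1-/-* HSCs, and its most abundant gene was *Mcm6*. The number of these genes called was 0 when limma was fitted without a trend in the variance, 0 without WT replicate 2, WT replicate 3, or *Irf1-/-* replicate 4, and 10 without WT replicate 4. The part of cell proliferation in the values of *Btg2* and *Chek1* was not tested.

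Markers of other lineages also differed between genotypes. *Klf1* and *Car1* were called lower among 4 tested erythroid genes (log2 fold changes −0.72 and −3.51), while edgeR and DESeq2 called *Klf1* alone. Over all tested genes, 0.954% were called lower and 0.96% higher. The erythroid list, of which *Epor* was the most abundant, summed to 5370, 4890, and 5633 normalized counts in WT and 3760, 2257, and 2821 in *Irf1-/-* HSCs. Of 6 megakaryocyte genes, *Pf4* and *Gp1bb* were called lower (−1.11 and −0.90). That list, led by *Itga2b*, summed to 58848, 71525, and 56822 in WT and 51516, 33794.5, and 46280 in *Irf1-/-* HSCs. *Fgd5* among 10 HSC genes (0.83) and *Flt3* among 4 genes of multipotent progenitors (0.67) were called higher. In the HSC list, *Procr* (0.52, adjusted *P* = 0.0112, limma) and *Ly6a*, in the opposite direction, passed the adjusted *P* but not the fold change threshold, and *Procr* was called without WT replicate 2 (0.58). The progenitor gene *Satb1* passed the adjusted *P* but stayed just under the fold change threshold (log2 fold change 0.579, adjusted *P* = 0.04995, limma). *Fgd5*, *Pf4*, and *Gp1bb* were called in all 6 fits that left out a library, while *Car1* lost its call without *Irf1-/-* replicate 3 or 4 (adjusted *P* in limma up to 0.0681). *Klf1* kept its call only without replicate 4 of either genotype (otherwise up to 0.117), and *Flt3* only without WT replicate 2 or 4 (otherwise up to 0.127). Of 8 granulocyte and monocyte, 5 B cell, 4 T and NK cell, and 5 stromal and endothelial genes tested, none was called by limma, edgeR, or DESeq2. In limma, 1, 0, 1, and 1 of them had an unadjusted *P* under 0.05 (16.5% of all tested genes). *Prtn3* passed the adjusted *P* but not the fold change threshold (0.53, adjusted *P* = 0.0334, limma), was higher in every *Irf1-/-* library, and was called without WT replicate 2 or WT replicate 4 (up to 0.60). The megakaryocyte gene *Itga2b* was called lower only without WT replicate 4 (adjusted *P* = 0.0449, limma). *S100a8* and *S100a9* stood out in WT replicate 4. *S100a8* had 1033 normalized counts there, compared with at most 110 in the other libraries, and *S100a9* had 1246, compared with at most 131. The part of these markers in the values of the 10 genes was not tested.

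In the gene order of GRCm38.p6, *Trp53* and *Ccng1* lie on chromosome 11, as does *Irf1*, with 198 and 110 tested genes between them and the disrupted gene. The other 8 genes lie on chromosomes 1 (*Mdm4*, *Phlda3*, and *Btg2*), 10 (*Mdm2* and *Sesn1*), 4 (*Trp53inp1* and *Sesn2*), and 3 (*Zmat3*). The 4 genes whose libraries did not overlap were therefore on chromosomes other than that of *Irf1*.

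Promoters were read from RefSeq (GRCm38.p6) as 300 bases, 250 before and 50 after a transcription start. There were 10 promoters for 8 of the genes, with 2 each for *Mdm4* and *Sesn1*, and none was listed for *Trp53inp1* and *Zmat3*. The core of the element that IRF1 binds, GAAA followed by any 2 bases and GAAA again, was searched on both strands and was in 0 of the 10, compared with 3.44% of 32851 promoters. The full p53 response element, a pair of half-sites with up to 13 bases between them, was in 0 of the 10 and in 0.0731% of all promoters. A search for single p53 half-sites, added after these results were seen, matched 4 of the 10 promoters and 8.36% of all. The half-site reads alike on both strands, so each match is 1 position. These windows are shown because they are where the sequence of the p53 element and the genes examined here meet, and the half-site is in capitals:
Trp53: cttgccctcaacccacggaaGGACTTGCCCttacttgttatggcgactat
Mdm2: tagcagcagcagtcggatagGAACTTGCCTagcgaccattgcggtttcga
Ccng1: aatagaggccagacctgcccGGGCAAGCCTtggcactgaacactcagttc
Sesn1: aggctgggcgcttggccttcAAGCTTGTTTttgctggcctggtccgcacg

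The window of *Trp53* is chr11:69580264-69580313 on the plus strand, and its half-site begins 75 bases before the start. That of *Mdm2* is chr10:117710915-117710964 on the minus strand (186 bases before), that of *Ccng1* chr11:40755442-40755491 on the minus strand (185 bases before), and that of *Sesn1* chr10:41887246-41887295 on the plus strand (173 bases before the downstream of its 2 starts). Of the 4 genes with such a match, *Sesn1* alone had libraries that did not overlap between genotypes. The promoters of *Btg2*, *Phlda3*, and *Sesn2* held no match. A match describes letters in a window and not a bound site, and elements outside these windows were not analysed here.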

How the data were processed

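The authors amplified cDNA of sorted HSCs (SMART-Seq v4) and prepared Nextera XT libraries. Reads were trimmed with Trim Galore! and aligned with HISAT2 (build mm39 in the submitters' processing notes), and Htseq-count on Galaxy gave counts per gene. The authors deposited a signal per gene, the count divided by 1 DESeq2 size factor per library. Annotation, strand setting, and program versions are not given in the sources used here, so reads of overlapping genes cannot be separated. In GENCODE vM1, no exon of another gene overlapped those of the 10 genes.

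All values (100%) were whole multiples of 1 read within 0.01, so reads were recovered. Libraries carry no molecular identifiers. Libraries of the same genotype differed by more than sampling noise (chi-square per gene 16.0 to 30.0).

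limma 3.58.1 (R 4.3.3, with an intensity trend) was fitted over all genes with a mean of at least 10, with a pseudocount of 1. edgeR 4.0.16 and DESeq2 1.42.0 were run on the recovered reads as alternatives, and the tests were checked on simulated data. Exon lengths matched 84.2% of tested genes by symbol. Named genes are *Irf1*, the 10 genes, the called genes of each list or otherwise its largest positive and negative fold change, and the 3 genes most like *Trp53* or the mean of the targets. Others were named after their values were seen. A gene that the rule includes is not reported here. The members and lists were chosen with earlier results of these data known. Figures were drawn with matplotlib 3.10.9.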

Additional observations from a re-analysis of the deposited data

How the results depend on the processing

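Log2 fold changes were recomputed under 16 alternatives (pseudocount, filter, trend, scaling, replicate block, each library left out, edgeR, and DESeq2). *Trp53*, *Mdm2*, *Mdm4*, *Sesn1*, and *Sesn2* kept their direction and stayed uncalled in all 16. The direction reversed for *Ccng1* after quantile normalization (0.0197) and scaling to equal totals (0.0319), and its range with a library left out was −0.0929 to 0.0293, above 0 without WT replicate 2, WT replicate 3, or *Irf1-/-* replicate 2. It reversed for *Zmat3* without *Irf1-/-* replicate 2 (range −0.77 to 0.0780) and for *Trp53inp1* without *Irf1-/-* replicate 4 (range −0.0356 to 0.11). Of the 10 genes, 0 were called without a trend, after quantile normalization, with equal totals, or by edgeR, 2 were called by DESeq2, and between 0 and 1 with a library left out. That 1 gene was *Phlda3* instead of *Btg2* without WT replicate 2. Other p53 targets had 2 calls by DESeq2 and between 0 and 2 with a library left out, and upstream genes between 0 and 1. The median of the 10 genes was between 0.04 and 0.15 with a library left out. Over all genes, 167 calls higher became 7 without a trend, 295 with DESeq2, 301 with no minimum fold change, and between 83 and 304 with a library left out. The 166 calls lower became 33 without a trend, 260 with no minimum fold change, and between 105 and 265 with a library left out. With the replicate number as a block, 219 genes were called higher and 196 lower, and *Btg2* remained the only call among the 10 genes. The adjusted *P* with this block was 0.0230 for *Sesn1* and 0.0369 for *Sesn2*. Correlations between libraries of the same number were −0.09, 0.25, and 0.15 for numbers 2, 3, and 4, and not every library correlated best with its own number, so a pairing of the mice is not known. The causes of these differences were not tested.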
